A study of Mus musculus with 14 samples.

Results

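Mpo, Elane, Prtn3 and Ctsg encode the peroxidase and the serine proteases of the azurophil granule, the first granule that a developing neutrophil makes. All probes that carried these gene symbols were taken, which gave 4 genes and 7 probes out of 19057 genes and 45281 probes on the array: 4 probes of Mpo and 1 each of Elane, Prtn3 and Ctsg. The signal of each probe was read on all 14 arrays. GFP+CD11b+ cells had been sorted from brain metastases (BrM), bone marrow and spleen and hybridized to Illumina MouseWG-6 v2 arrays, to find genes that myeloid cells in brain tumors express more than those elsewhere in the body. There were 4 arrays of PyMT BrM, 2 of EO771 BrM, 1 of bone marrow and 3 of spleens from PyMT BrM-bearing mice, and 2 of bone marrow and 2 of spleens from naïve mice without a tumor.

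All mice were C57Bl/6J and 14 weeks old. The PyMT and EO771 lines, both from mouse mammary tumors, had been implanted intracranially and grown for about 2 weeks. All mice, naïve ones included, were chimeras: they had been irradiated and had received bone marrow of GFP-transgenic donors. GFP therefore marked any cell of donor marrow and no single cell type, and CD11b is carried by neutrophils, monocytes and macrophages alike. The EO771 BrM had no spleen or bone marrow of EO771 mice beside them, so that in the comparison with naïve spleens the tissue and the tumor-bearing state cannot be told apart. The code stem in the labels was the same for both naïve bone marrow arrays, and EO771 BrM 2 carried a pair of mouse numbers; the study's methods list the arrays of each group as biological replicates and do not explain these codes. P-values measure the spread between these samples. Some PyMT arrays of different tissues also shared a code stem in their labels, and naïve spleen 1 shared that of the naïve bone marrow arrays. A shared stem may stand for 1 mouse.

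Neutrophils arise in the bone marrow from promyelocytes, the stage at which the azurophil granule is filled. Its peroxidase turns hydrogen peroxide and chloride into hypochlorous acid, and its proteases digest bacterial and matrix proteins. Transcription of these genes is high in promyelocytes and is shut off as the cells mature, so that circulating neutrophils carry the proteins while their mRNA is low. Bone marrow is the main site of this stage in adult mice, and the mouse spleen can hold some granulocyte precursors.

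The 4 genes lie at 3 loci, and the sequence before each start site was examined because the genes varied together across the arrays. The 250 bases before the RefSeq start site of each gene in build GRCm38.p6 are shown 5′ to 3′ on the strand of the gene, with capitals for the core GAGGAA bound by PU.1, the myeloid transcription factor encoded by Spi1. They lie at chr11:87793534-87793783 on the plus strand for Mpo, chr10:79886062-79886311 on the plus strand for Elane, chr10:79879417-79879666 on the plus strand for Prtn3 and chr14:56102575-56102824 on the minus strand for Ctsg.
Mpo: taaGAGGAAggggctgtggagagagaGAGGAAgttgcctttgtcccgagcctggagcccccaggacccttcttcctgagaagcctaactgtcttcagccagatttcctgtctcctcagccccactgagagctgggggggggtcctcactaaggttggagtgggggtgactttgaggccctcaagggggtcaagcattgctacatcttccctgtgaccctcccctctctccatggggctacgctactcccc
Elane: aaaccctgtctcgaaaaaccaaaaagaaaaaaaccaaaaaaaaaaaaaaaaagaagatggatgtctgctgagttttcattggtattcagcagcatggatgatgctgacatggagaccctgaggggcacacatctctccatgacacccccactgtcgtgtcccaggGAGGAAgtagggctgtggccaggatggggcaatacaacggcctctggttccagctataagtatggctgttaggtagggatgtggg
Prtn3: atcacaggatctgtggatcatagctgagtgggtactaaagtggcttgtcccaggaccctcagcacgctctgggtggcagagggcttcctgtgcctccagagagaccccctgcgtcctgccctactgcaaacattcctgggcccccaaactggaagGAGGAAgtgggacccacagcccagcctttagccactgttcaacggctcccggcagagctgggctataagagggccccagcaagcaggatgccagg
Ctsg: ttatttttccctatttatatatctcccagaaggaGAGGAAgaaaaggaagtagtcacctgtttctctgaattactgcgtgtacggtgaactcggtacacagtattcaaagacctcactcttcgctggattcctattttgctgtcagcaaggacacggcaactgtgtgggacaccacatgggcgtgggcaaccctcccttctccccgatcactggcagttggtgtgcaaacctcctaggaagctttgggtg

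The GAGGAA core stood in 4 of 4 promoters, each time on the strand of the gene, whereas 28.3% of all 32851 mouse promoters of 300 bases in the RefSeq table held it on either strand. Positions count back from the start site. Elane and Prtn3, which are neighbors on chromosome 10, had it at bases -85 to -80 and -95 to -90. Ctsg had it at -216 to -211, and Mpo had copies at -247 to -242 and -224 to -219. The short MYB motif AACNG was in 4 of 4 promoters too, but in 80.3% of all promoters. The RUNX motif TGTGGT was in that of Ctsg alone (16.8% of all promoters), and neither the C/EBP motif TTNNGNAA (40.7%) nor the GFI1 core TAAATCAC (0.578%) was in any of the 4. Both strands were searched over 300 bases, the 250 before the start and 50 after it, and no match to one motif overlapped a match to another. These are matches of letters and not measured binding.

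Values are log2 signals, quantile normalized by the authors, so that 1 unit is a doubling of signal. Each array had a median of 4.06. Olfactory receptor genes, which belong mostly to the nose, served as a measure of background: the 95th percentile of their 1287 probes ranged from 4.44 to 4.99 among the arrays, and a signal below it on the same array was taken as not above background. Of the genes that marked the sort, Itgam, which encodes CD11b, was above this level on all 14 arrays (5.74 to 8.87). The brightest probe stood for a gene. A change was called at an adjusted p under 0.01 in limma, with Benjamini-Hochberg adjustment over all 45281 probes.

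One array stood apart from its label. PyMT spleen 2 correlated better with the bone marrow arrays (mean r = 0.942) than with the other spleens (0.903). Each of the other spleens had a mean r of 0.924 to 0.929 with the remaining spleens, PyMT spleen 2 included. Their mean r with bone marrow was 0.897 to 0.925. The r values are over all probes and are given as a description. Its mean log2 signal over the 4 genes was 11.86, within the range of the bone marrow arrays (11.34 to 12.19) and above the other 4 spleens (9.19 to 9.88). Some other granulocyte lists stood with the bone marrow arrays as well. Genes of the specific and gelatinase granules averaged 11.62 on PyMT spleen 2, against 11.36 to 11.51 on bone marrow arrays and 9.88 to 10.29 on the other spleens, and genes of mature neutrophils 10.31, against 9.76 to 10.27 and 8.56 to 9.46. The other azurophil contents averaged 8.68 on PyMT spleen 2, 8.59 to 8.77 on bone marrow arrays and 8.50 to 8.84 on the other spleens. For the protease inhibitors the values were 6.06, 6.02 to 6.10 and 5.99 to 6.33. In these lists the bone marrow range lay within that of the other spleens, so they cannot place the array. Macrophage markers averaged 8.10 on it, against 8.11 to 8.92 on bone marrow and 9.44 to 10.25 on the other spleens, and T and NK cell markers averaged 4.66, against 4.42 to 4.93 and 5.55 to 5.97. Whether this array holds cells of another tissue was not tested, and results that rest on it are given with and without it.

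**Figure D1:**
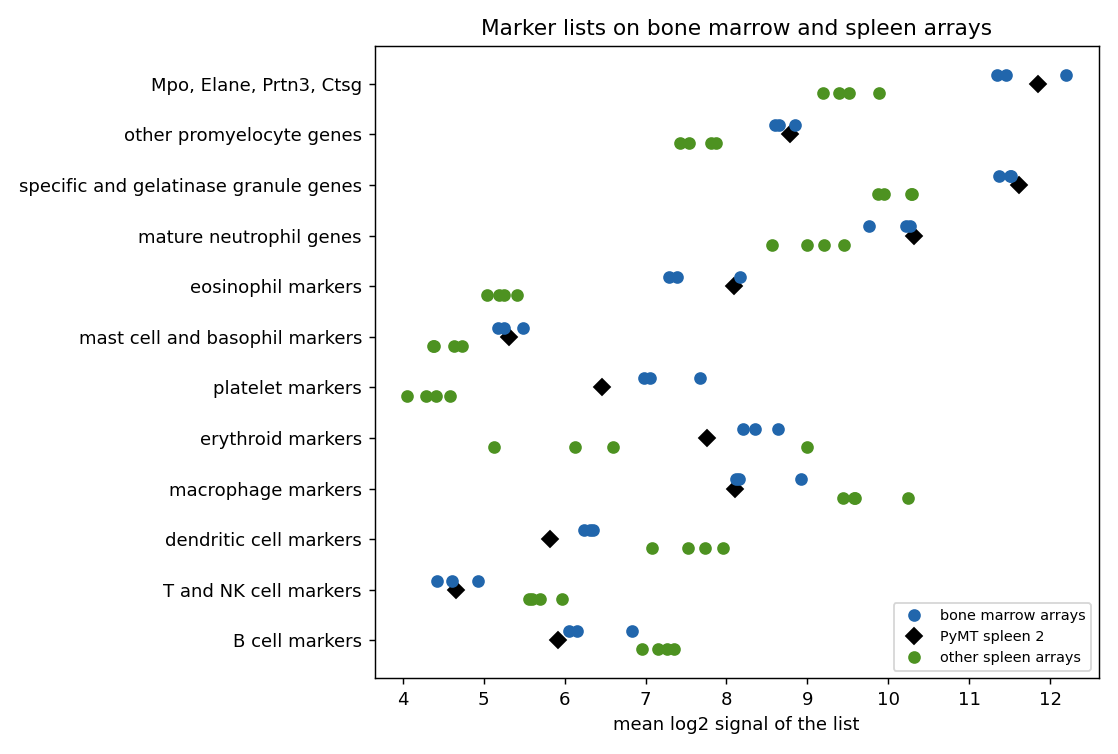
Mean log2 signal (x axis) of 12 gene lists (y axis) on the bone marrow arrays, on PyMT spleen 2 and on the other 4 spleen arrays, 1 point per array. For the 4 azurophil genes PyMT spleen 2 sits at 11.86, inside the bone marrow range of 11.34 to 12.19, while the other spleens lie between 9.19 and 9.88.

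The members were first compared among bone marrow, spleen and BrM, array by array. Mpo, the peroxidase, had log2 signals of 3.87, 6.26, 8.76 and 6.11 in PyMT BrM 1 to 4 and of 3.97 and 3.80 in the EO771 BrM. It had 13.47 in the PyMT bone marrow and 12.87 and 12.84 in the naïve bone marrow, and 10.95, 13.11 and 10.83 in PyMT spleens 1 to 3 and 10.89 and 10.58 in the naïve spleens. Every BrM array lay below every bone marrow and spleen array, PyMT BrM 1 and both EO771 BrM were not above background, and PyMT spleen 2 lay among the bone marrow arrays. The mean (SD) was 5.46 (1.97) in BrM (n = 6), 13.06 (0.36) in bone marrow (n = 3) and 11.27 (1.04) in spleens (n = 5).

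Elane encodes neutrophil elastase. Its signals were 4.71, 5.43, 7.50 and 5.64 in PyMT BrM 1 to 4 and 4.80 and 4.71 in the EO771 BrM. They were 12.15 in the PyMT bone marrow and 11.16 and 11.15 in the naïve bone marrow, and 9.94, 11.95 and 9.30 in PyMT spleens 1 to 3 and 9.32 and 8.83 in the naïve spleens. The BrM arrays did not overlap with the others and were just above background on PyMT BrM 1 and both EO771 BrM. The mean (SD) was 5.47 (1.07) in BrM, 11.49 (0.58) in bone marrow and 9.87 (1.23) in spleens.

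Ctsg, the gene of cathepsin G, had 3.18, 5.24, 6.87 and 4.55 in PyMT BrM 1 to 4 and 3.18 and 3.58 in the EO771 BrM. It had 10.88 in the PyMT bone marrow and 9.77 and 10.04 in the naïve bone marrow, and 8.06, 10.61 and 7.59 in PyMT spleens 1 to 3 and 7.82 and 7.63 in the naïve spleens. As with Mpo, PyMT BrM 1 and both EO771 BrM were not above background, and PyMT BrM 4 was at its level. The mean (SD) was 4.43 (1.45) in BrM, 10.23 (0.58) in bone marrow and 8.34 (1.28) in spleens.

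Prtn3, which encodes proteinase 3, was above background on all 14 arrays, like Elane, but less narrowly on PyMT BrM 1 and both EO771 BrM. It had 7.88, 8.80, 7.86 and 9.58 in PyMT BrM 1 to 4 and 6.20 and 5.22 in the EO771 BrM. It had 12.26 in the PyMT bone marrow and 11.57 and 11.80 in the naïve bone marrow, and 10.57, 11.76 and 9.84 in PyMT spleens 1 to 3 and 10.05 and 9.73 in the naïve spleens. BrM again lay below the other tissues without overlap, but PyMT BrM 4, at 9.58, came close to the lowest spleen, at 9.73. The mean (SD) was 7.59 (1.62) in BrM, 11.88 (0.35) in bone marrow and 10.39 (0.83) in spleens.

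**Figure D2:**
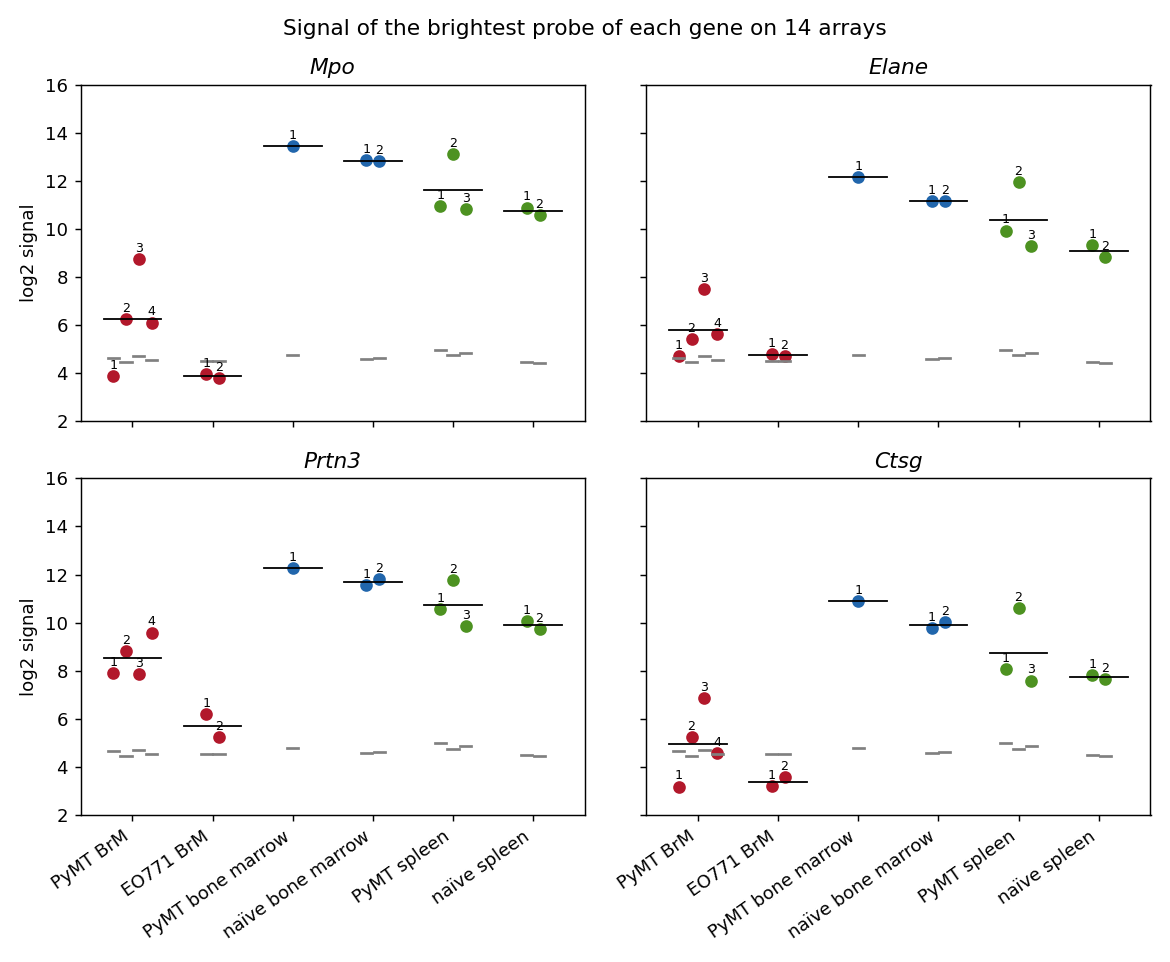
Log2 signal of the brightest probe of Mpo, Elane, Prtn3 and Ctsg (y axis) in the 6 conditions (x axis), 1 numbered point per array, with a black line at the group mean and a grey tick at the background level of each array (95th percentile of the olfactory receptor probes). BrM arrays lie below all others for each gene, and PyMT spleen 2 lies with the bone marrow arrays.

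BrM were compared with bone marrow. The 4 genes had log2 differences of -4.29 to -7.60, lower in BrM, and 4 of 4 genes and 7 of 7 probes passed the test, against 3.21% of all probes called lower. The log2 difference was -7.60 for Mpo (SE 0.90, adjusted p = 5.78e-05 from limma), 193-fold lower, and for Elane it was -6.02 (SE 0.66, adjusted p = 2.92e-05), 65.0-fold lower. Ctsg differed by -5.79 (SE 0.78, adjusted p = 1.60e-04), 55.4-fold, and Prtn3 by -4.29 (SE 0.74, adjusted p = 0.00125), 19.5-fold. The median over the 4 genes was -5.91, beside -0.02 over all probes. All BrM arrays were below all bone marrow arrays for 7 of 7 probes, as they were for 9.27% of probes on the array. With the code stem as a fixed replicate block the differences were -3.86 to -6.17 and 0 of 4 genes were called (limma adjusted p from 0.0111 to 0.0165), whereas with it as a random block 4 of 4 were (2.49e-05 to 0.00103). A fixed block gives no weight to arrays with a stem of their own, which were both EO771 BrM, PyMT BrM 1 and naïve spleen 2.

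Since part of the BrM signals were not above background, the fold of Mpo and Ctsg depends on that level. Elane was just above it on PyMT BrM 1 and both EO771 BrM, so its fold lies near that limit too. With each value raised to the level of its array, an alternative chosen after the data were seen, the difference was -7.25 for Mpo and -5.16 for Ctsg. Both stayed called (limma adjusted p = 3.97e-05 and 9.60e-05). In these bulk samples of sorted cells, fewer cells of a type and less RNA per cell cannot be told apart. Macrophage markers ran the other way, with a mean log2 signal over the list of 10.11 to 10.63 in BrM and 8.11 to 8.92 in bone marrow, and 7 of 16 called higher and 0 lower. Markers of some other lineages were lower in BrM too: 7 of 12 erythroid markers were called lower than in bone marrow (list means of 4.34 to 5.25 in BrM and 8.20 to 8.64 in bone marrow), 4 of 8 platelet markers (4.16 to 5.48 and 6.99 to 7.67) and 3 of 9 B cell markers, with 0 higher in each. Against spleens, 3 erythroid and 5 B cell markers were lower. The platelet marker Pf4, named after its value was seen, was higher there by 4.14 (limma adjusted p = 3.06e-04). Macrophage markers were called in both directions against spleens, where their list means were 8.10 to 10.25. All genes with a symbol had 4.45% higher and 4.53% lower calls against bone marrow, and 3.3% and 3.23% against spleens. The part of these lists in the result was not tested.

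BrM were then compared with spleens, the tissue outside the marrow. Again 4 of 4 genes and 7 of 7 probes were lower in BrM, against 2.6% of all probes called lower, and no BrM array overlapped with a spleen array, as was so for 3.54% of probes. Mpo differed by -5.81 (SE 0.77, adjusted p = 1.53e-04 from limma), 56.1-fold, Elane by -4.40 (SE 0.56, adjusted p = 1.10e-04), 21.1-fold, and Ctsg by -3.91 (SE 0.67, adjusted p = 0.00119), 15.0-fold. By their brightest probes, Prtn3 differed least of the 4 genes, by -2.80 (SE 0.64, adjusted p = 0.00988), 6.96-fold. The median of the 4 was -4.15, against -0.00 over all probes. With the code stem as a fixed replicate block, 0 of 4 were called, at -2.02 to -4.52 (limma adjusted p from 0.0108 to 0.0560), and with it as a random block 4 of 4 (5.04e-05 to 0.00703). The EO771 BrM again had no weight under the fixed block.

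The call of Prtn3 against spleens rested close to the threshold. Of 28 alternatives, 17 lost it. It was lost when any of 9 of the 11 BrM and spleen arrays was left out, with adjusted p from 0.0130 to 0.0275, and was kept without PyMT BrM 2 or PyMT BrM 4 (limma adjusted p = 0.00896 and 0.00292). Its difference stayed between -2.32 and -3.20 in these fits. Without PyMT spleen 2 it was -2.45 (adjusted p = 0.0254). Against bone marrow and spleens pooled, 4 of 4 genes were called lower in BrM beside 3.12% of all probes, with -6.48 for Mpo, -5.01 for Elane, -3.36 for Prtn3 and -4.61 for Ctsg, and 0 of 4 with the fixed block (limma adjusted p from 0.0156 to 0.112).

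**Figure D3:**
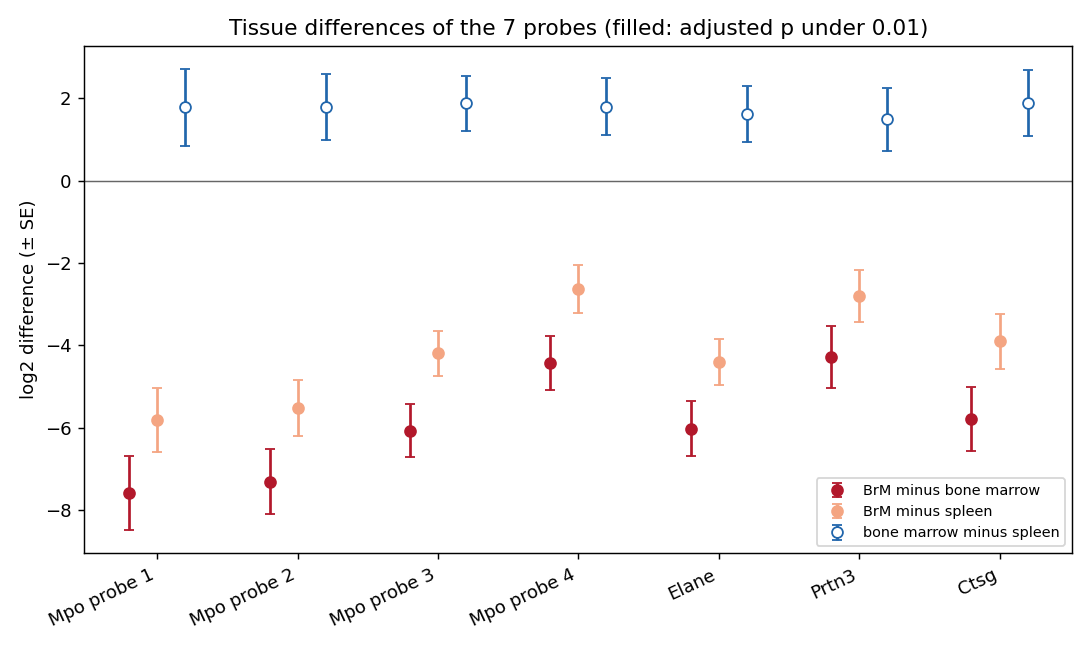
Log2 difference (y axis, with its SE as bars) of the 7 probes (x axis) in BrM minus bone marrow, BrM minus spleen and bone marrow minus spleen, with filled symbols where the adjusted p was under 0.01. All 7 probes are filled in both comparisons with BrM and none in bone marrow minus spleen, where they lie between 1.49 and 1.89.

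Bone marrow was compared with spleen to see how the tissue of granulocyte production stands against a peripheral one. All 4 genes had higher means in bone marrow, but none passed the test: the difference was 1.78 for Mpo (SE 0.93, adjusted p = 0.437 from limma), 1.62 for Elane (SE 0.68, adjusted p = 0.313), 1.49 for Prtn3 (SE 0.77, adjusted p = 0.431) and 1.89 for Ctsg (SE 0.80, adjusted p = 0.321). These are folds of 3.44, 3.07, 2.81 and 3.70. The count of 0 of 4 stood beside 4 of all 45281 probes (0.00883%) in either direction, while 6004 probes passed an unadjusted 0.05. By their brightest probes, Elane and Ctsg were among these, with limma's unadjusted p at 0.0308 and 0.0328. Mpo and Prtn3 were not (limma's unadjusted p = 0.0741 and 0.0717). The other probes of Mpo were, with limma's unadjusted p at 0.0425, 0.0124 and 0.0195. The median of the 4 genes was 1.70, beside 0.02 over all probes.

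The ranges of the tissues overlapped for each gene through PyMT spleen 2. Without it the differences were 2.24 for Mpo, 2.14 for Elane, 1.83 for Prtn3 and 2.45 for Ctsg, with limma adjusted p of 0.202, 0.0339, 0.217 and 0.0508, and 1652 of all probes were called. Among naïve mice alone, where the 2 bone marrow arrays lay above the 2 spleen arrays for 4 of 4 genes, as for 27.8% of all probes, the differences were 2.11, 2.08, 1.80 and 2.17 for Mpo, Elane, Prtn3 and Ctsg. None was called (adjusted p from 0.212 to 0.442), nor was any probe on the array, although 6794 passed an unadjusted 0.05. Naïve spleen 1 and the 2 naïve bone marrow arrays carried the same code stem, so these arrays may not be independent. In PyMT mice, with 1 bone marrow array that the fit assumes to vary like the other groups, they were 1.84, 1.76, 1.54 and 2.13, with 0 of 4 called beside 0.0199% of all probes. The test of the difference between the PyMT and naïve values gave -0.28, -0.32, -0.26 and -0.04, none of them called (adjusted p of at least 0.989).

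The other 3 probes of Mpo were dimmer, with the same order of the tissue means. The second read 3.40, 5.90, 7.55 and 4.97 in PyMT BrM 1 to 4 and 3.57 and 3.91 in the EO771 BrM, against 12.72 in PyMT and 11.90 and 11.96 in naïve bone marrow and 9.71 to 12.24 in spleens. The third read 2.60 to 5.23 in BrM, 9.32 to 10.70 in bone marrow and 7.09 to 10.18 in spleens, and the fourth 3.61 to 5.28, 8.31 to 9.42 and 5.58 to 9.63. On each of the 4 probes PyMT spleen 2 was the highest spleen array and PyMT BrM 3 the highest BrM array. The differences between bone marrow and spleen were within 1.78 to 1.89 for the 4 probes. Those with BrM were not so alike. BrM minus bone marrow was -7.60 on the brightest probe and -7.31, -6.08 and -4.43 on the others. BrM minus spleen was -5.81 on the brightest and -5.52, -4.19 and -2.63 on the others. On the probes with -5.81 and -5.52, 3 of 6 BrM arrays were above background. On those with -4.19 and -2.63, only 1 of 6 was, PyMT BrM 3. Neither EO771 BrM array was above background on any of the 4 probes. The differences with BrM are therefore limited by background and cannot show whether the probes disagree. On the fourth probe EO771 BrM minus naïve spleen was -1.59 and not called (limma adjusted p = 0.415), and PyMT BrM minus EO771 BrM was -0.0042. The folds given for Mpo are those of its brightest probe.

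The BrM arrays themselves were then set against the bone marrow mean of the same probe. The largest distance that can be read differs by gene, because background lies at unlike distances below these means. On PyMT BrM 1 it lay at -8.40 for Mpo, -6.83 for Elane, -7.22 for Prtn3 and -5.57 for Ctsg. On PyMT BrM 3 the 4 genes stood close together, with log2 values of -4.30 for Mpo, -3.99 for Elane, -4.02 for Prtn3 and -3.36 for Ctsg. On PyMT BrM 1 they were -9.19, -6.78, -3.99 and -7.05, on PyMT BrM 2 -6.80, -6.06, -3.08 and -4.99, and on PyMT BrM 4 -6.95, -5.85, -2.30 and -5.67, in the same order of genes. Mpo and Ctsg were not above background on PyMT BrM 1, and Elane was just above it. Prtn3 was thus the least reduced gene on those 3 arrays, and on PyMT BrM 3 Ctsg was. On the EO771 BrM the values were -9.08, -6.68, -5.68 and -7.04 on the first array and -9.26, -6.78, -6.65 and -6.64 on the second, where Mpo and Ctsg were not above background and their distances are limited by it.

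The array with the highest Mpo, Elane and Ctsg among BrM was PyMT BrM 3, and that with the highest Prtn3 was PyMT BrM 4. PyMT BrM 3 also had the highest mean signal of the specific and gelatinase granule genes, 7.57, against 6.13 to 7.25 on the other BrM arrays. Prtn3 was the member whose values followed the others least: over the 14 arrays Mpo, Elane and Ctsg had pairwise r of 0.987 to 0.988, and Prtn3 had 0.896 to 0.907 with each of them. These correlations mostly carry the difference between tissues and are given as a description.

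**Figure D4:**
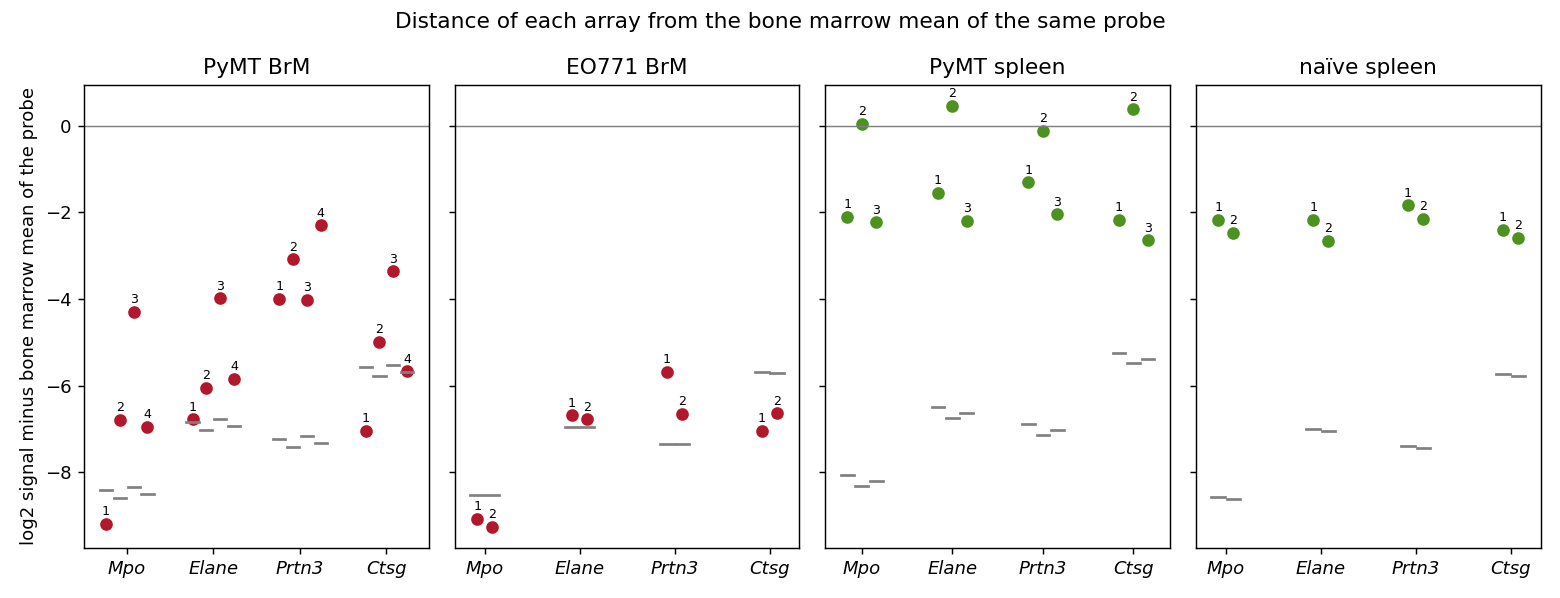
Log2 signal of each array minus the bone marrow mean of the same probe (y axis) for the 4 genes (x axis), with a panel each for PyMT BrM, EO771 BrM, PyMT spleens and naïve spleens, numbered by array, and grey ticks at the background level of each array. Prtn3 lies above the other genes on PyMT BrM 1, 2 and 4, the genes lie together on PyMT BrM 3, and PyMT spleen 2 lies near 0.

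Both tumor models were examined separately. PyMT BrM differed from PyMT spleens by -5.38 for Mpo (SE 0.88, adjusted p = 0.00244 from limma) and -4.58 for Elane (SE 0.65, adjusted p = 0.00107). The difference was -2.19 for Prtn3 (SE 0.50, adjusted p = 0.0149) and -3.79 for Ctsg (SE 0.80, adjusted p = 0.0103). Thus 2 of 4 genes were called lower, against 2.02% of all probes. Without PyMT spleen 3 the count was 4.

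EO771 BrM differed from naïve spleens by -6.85 for Mpo (SE 1.16, adjusted p = 0.00490 from limma) and -4.18 for Prtn3 (SE 0.65, adjusted p = 0.00296), while Elane had -4.32 (SE 0.86, adjusted p = 0.0127) and Ctsg -4.34 (SE 1.05, adjusted p = 0.0342). This gave 2 of 4 called lower, against 0.877% of all probes, and no gene was called once either of the EO771 BrM or either of the naïve spleens was left out. As the EO771 BrM were not above background for Mpo and Ctsg, their folds are bounds. By its brightest probe, Mpo was at least 74.0-fold lower in EO771 BrM than in naïve spleens, with measured means of 3.89 and 10.74. Ctsg was at least 9.18-fold lower, with means of 3.38 and 7.73. The bounds set EO771 BrM at the background level of its arrays.

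PyMT BrM had higher means than EO771 BrM for all 4 genes, and 0 of 4 were called, against 0.583% of all probes called higher. The difference was 2.82 for Prtn3 (SE 0.56, adjusted p = 0.0143 from limma), with the PyMT BrM arrays at 7.86 to 9.58 and the EO771 BrM at 5.22 to 6.20. It was 2.36 for Mpo (SE 1.00, adjusted p = 0.205), 1.58 for Ctsg (SE 0.91, adjusted p = 0.369) and 1.06 for Elane (SE 0.74, adjusted p = 0.477). Those of Mpo and Ctsg are limited by background, above which neither EO771 BrM array lay. With values raised to that level they were 1.92 and 0.80. Elane was just above it on both EO771 BrM and on PyMT BrM 1. The groups did not overlap for Prtn3, as for 18.8% of all probes with PyMT BrM above, whereas for Mpo, Elane and Ctsg an EO771 BrM array lay above PyMT BrM 1, the lowest of the PyMT BrM. Whether BrM minus spleen differed between PyMT and EO771 mice was tested as well, a comparison added after the values were seen, and 0 of 4 genes were called, beside 0.0287% of all probes (1.98 for Prtn3, SE 0.82, limma adjusted p = 0.393).

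PyMT spleens and naïve spleens were compared to see if a brain tumor went along with these genes in the periphery. The means were higher in PyMT spleens by 0.89 for Mpo, 1.32 for Elane, 0.84 for Prtn3 and 1.02 for Ctsg, with 0 of 4 called (limma adjusted p from 0.379 to 0.687), against 0.0287% of all probes called higher. Most of that came with PyMT spleen 2: without it the differences were 0.15, 0.55, 0.32 and 0.09.

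Genes for other azurophil granule contents and their processing, chaperones included, were not called lower in BrM as the 4 members were. Of 10 measured genes for its other contents and their processing, 3 were called higher in BrM than in bone marrow and 0 lower, with a median difference of 0.27, and 3 higher and 0 lower against spleens, with a median of 0.93. All genes with a symbol had 4.45% higher and 4.53% lower calls in BrM minus bone marrow, and 3.3% and 3.23% in BrM minus spleen. The genes named from here on were chosen after their values were seen, because the rule for naming list genes rested on calls between bone marrow and spleen, of which there were 0 in every list.

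Ctsc encodes cathepsin C, the dipeptidyl peptidase that cuts the propeptide from elastase, proteinase 3 and cathepsin G and so activates them. Its log2 signal was 13.29, 13.32, 13.53 and 13.47 in PyMT BrM 1 to 4 and 12.60 and 12.86 in the EO771 BrM. It was 10.56 in the PyMT bone marrow and 10.36 and 10.28 in the naïve bone marrow, and 11.88, 10.35 and 11.86 in PyMT spleens 1 to 3 and 11.64 and 12.33 in the naïve spleens. Ctsc thus ran opposite to the genes of its substrates, highest on all BrM arrays without overlap, and on PyMT spleen 2 it was at the bone marrow level. The difference was 2.78 against bone marrow (SE 0.35, adjusted p = 9.65e-05 from limma) and 1.57 against spleens (SE 0.30, adjusted p = 0.00293).

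Gusb, the lysosomal and granule enzyme beta-glucuronidase, was higher in BrM too, by 1.68 against bone marrow (SE 0.29, limma adjusted p = 0.00123) and 1.63 against spleens (SE 0.25, adjusted p = 4.98e-04). Cd63, a membrane protein of azurophil granules and lysosomes, was higher than in spleens by 1.82 (SE 0.34, adjusted p = 0.00224). Calr, the chaperone calreticulin, which assists the folding of myeloperoxidase, was higher than in bone marrow by 2.53 (SE 0.46, adjusted p = 0.00169). Its mean in bone marrow, 4.75, lay near background. The proteins of Gusb, Cd63 and Calr are made by macrophages as well. Lyz1 and Lyz2, the lysozymes, averaged 14.01 and 14.26 in BrM, 14.06 and 14.18 in bone marrow and 14.06 and 13.45 in spleens, and were not called. The highest value of every array was 14.58, so signals this close to it leave little room for a rise. Bpi and Canx were not above background on any array, and Cstad was above it on only 2, so these genes could not show a fall.

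The inhibitors of the proteases held 10 measured genes, of which 1 was lower in BrM than in bone marrow and 2 lower than in spleens, with medians of -0.08 and -0.18. Serpinb1a encodes a serpin of the neutrophil cytoplasm that blocks elastase, proteinase 3 and cathepsin G. It had 4.30, 4.97, 5.11 and 5.22 in PyMT BrM 1 to 4 and 4.37 and 4.12 in the EO771 BrM, with PyMT BrM 1 and both EO771 BrM not above background. It had 10.36 in the PyMT bone marrow and 10.32 and 10.23 in the naïve bone marrow, and 9.06, 11.12 and 8.06 in PyMT spleens 1 to 3 and 8.48 and 7.74 in the naïve spleens. The inhibitor gene therefore lay in the pattern of its target proteases, PyMT spleen 2 included. It differed by -5.62 against bone marrow (SE 0.55, adjusted p = 1.01e-05 from limma) and -4.21 against spleens (SE 0.47, adjusted p = 3.12e-05). Serpinb6a, a serpin that inhibits cathepsin G, differed by -1.62 against spleens (SE 0.31, adjusted p = 0.00299). Slpi, the secreted inhibitor of elastase and cathepsin G, had -3.27 and -2.97 and was not called (limma adjusted p = 0.0236 and 0.0200).

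Of 16 measured regulators of early granulocyte genes, 2 were called higher and 3 lower in BrM than in bone marrow, and 1 higher and 3 lower than in spleens, with medians of -0.66 and 0.05. Gfi1, the repressor needed for granulocyte development, averaged 4.89 in BrM, 9.15 in bone marrow and 7.33 in spleens. It differed by -4.27 against bone marrow (SE 0.38, adjusted p = 4.49e-06 from limma) and by -2.44 against spleens (SE 0.32, adjusted p = 1.50e-04). Cebpe, which drives the step from azurophil to specific granules, averaged 6.40, 12.79 and 10.74 in the same tissues with differences of -6.38 (SE 0.61, adjusted p = 8.72e-06) against bone marrow and -4.34 (SE 0.52, adjusted p = 6.13e-05) against spleens. Csf3r, the receptor of G-CSF, differed by -3.17 and -2.82 (limma adjusted p = 0.00107 and 8.70e-04).

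Cebpa, the factor of the earlier step into the granulocyte and monocyte lineage, ran the other way. It averaged 7.25 in BrM, 5.50 in bone marrow and 4.92 in spleens, with differences of 1.75 (SE 0.38, adjusted p = 0.00648 from limma) and 2.33 (SE 0.33, adjusted p = 2.46e-04). Spi1, whose product binds the core marked in the promoters above, averaged 8.31 in BrM, 9.22 in bone marrow and 8.57 in spleens. Its differences of -0.91 and -0.26 were not called (adjusted p = 0.140 and 0.714), and its arrays lay between 7.65 and 9.69.

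**Figure D5:**
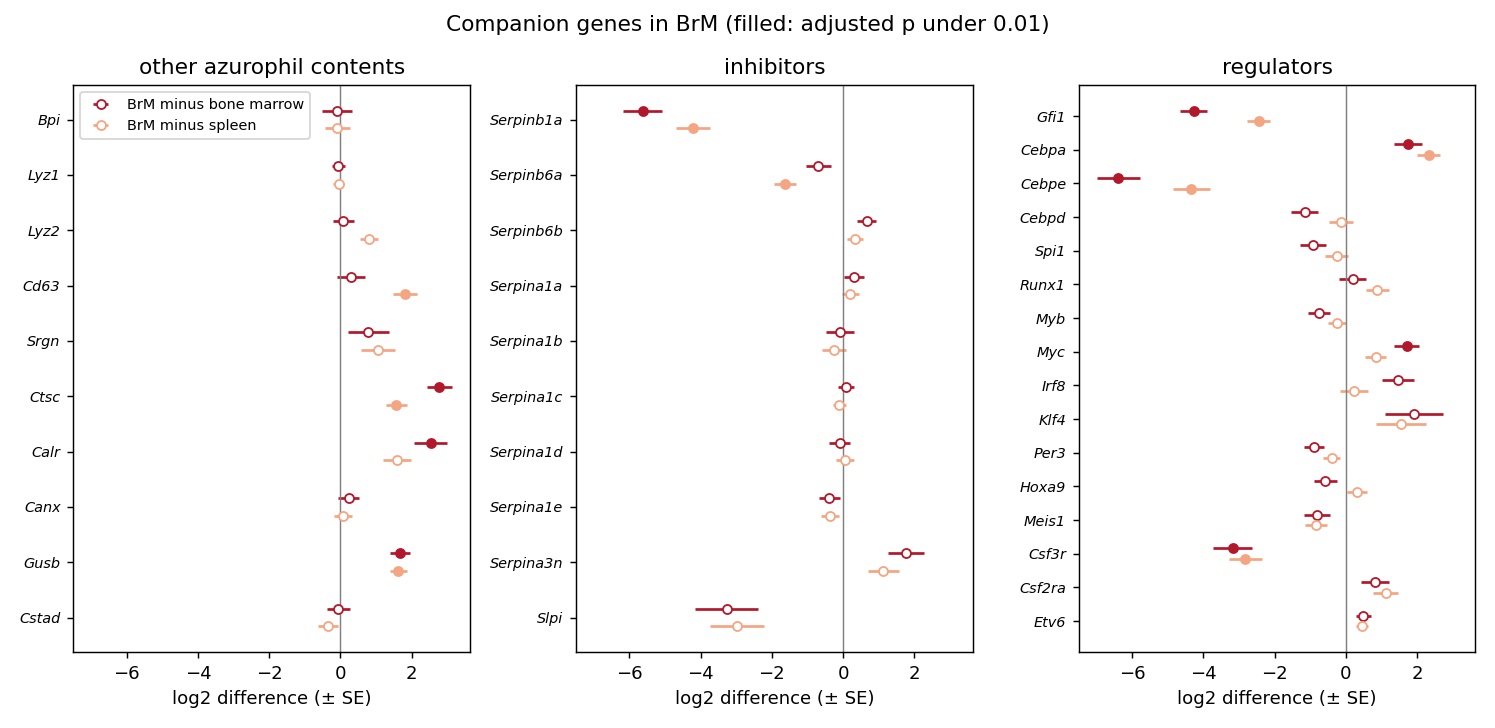
Log2 difference (x axis, with its SE as bars) of genes for other azurophil contents and their processing, protease inhibitors and regulators (y axis) in BrM minus bone marrow and BrM minus spleen, with filled symbols where the adjusted p was under 0.01. Ctsc, Gusb and Cebpa lie to the right of 0 in both comparisons, and Serpinb1a, Gfi1, Cebpe and Csf3r to the left.

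Part of the genes of other granules and stages were lower in BrM too. Of 19 other granule and precursor genes of promyelocytes, 10 were lower and 0 higher than in bone marrow (median -1.83), and 8 lower and 1 higher than in spleens (median -1.46). Ms4a3, a marker of granulocyte and monocyte progenitors, had -6.13 and -4.32, and Fcnb, the ficolin of immature neutrophils, -6.88 and -5.24 (limma adjusted p from 1.06e-06 to 3.23e-05). Their BrM means of 4.10 and 4.55 lay near background. Igfbp4, an insulin-like growth factor binding protein, was the gene that was higher than in spleens, by 2.61 (adjusted p = 8.26e-04).

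Later genes showed the same direction, with 14 of 20 specific and gelatinase granule genes lower than in bone marrow (median -4.63) and 11 lower than in spleens (median -3.27), and 0 higher in either. Of 19 genes of mature neutrophils, 13 and 10 were lower (medians -3.16 and -1.50) and 0 higher. Pglyrp1, the peptidoglycan recognition protein of granules, had -6.91 and -5.64. The remaining genes of these lists did not pass the test, and no difference between lists was tested.

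Relatives of the members by family were mostly dim. Epx, the eosinophil counterpart of Mpo, averaged 3.85 in BrM, 7.87 in bone marrow and 5.24 in spleens, and was the 1 of 6 peroxidase relatives called lower than in bone marrow, with -4.01 (SE 0.68, adjusted p = 0.00101 from limma), with 0 called against spleens. The list of eosinophil markers, Epx included, averaged 3.77 to 4.95 in BrM, 7.29 to 8.17 in bone marrow and 5.04 to 8.09 in spleens. Of that list Prg2, Prg3 and Ear10 were also called lower than in bone marrow, whereas Ccr3 was called lower than in spleens only. Of 20 serine protease relatives, 2 were lower than in bone marrow and 1 lower than in spleens. Gzmm, a granzyme, had -1.72 and -1.30 (adjusted p = 3.32e-04 and 9.71e-04), and Prss34, a basophil protease, had -4.27 against bone marrow (adjusted p = 9.43e-04).

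The nearest annotated genes with a probe on each side of the members were read as neighbors. Tspoap1, before Mpo on chromosome 11, averaged 6.51 in BrM, 8.80 in bone marrow and 7.81 in spleens and was lower in BrM, with -2.29 against bone marrow and -1.30 against spleens (limma adjusted p = 3.19e-04 and 0.00789), while Lpo, the lactoperoxidase gene after it, was not above background on any array. Prtn3 and Elane are each other's neighbors. Med16, a Mediator subunit gene after Elane, had -0.55 and -0.46 and was not called (adjusted p = 0.223 and 0.240), and Mcpt8, the basophil protease gene beside Ctsg, had -1.24 against bone marrow (adjusted p = 0.0119).

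Outside the members, the genes whose brightest probes were most like the 4, by mean Pearson r over 14 arrays, were Arhgap4 (0.969), Retnlg (0.966), Krtcap3 (0.963), Chil1 (0.961), Cdk2ap2 (0.961), Gmip (0.960), Pglyrp1 (0.960), Mapk13 (0.959), C2cd5 (0.958) and Ms4a3 (0.958). For single members the closest gene was Chst15 for Mpo (r = 0.986), Ms4a3 for Elane (0.991), Mob3a for Prtn3 (0.976) and Arhgap4 for Ctsg (0.980). The arrays share their tissue and their normalization, and the r values are descriptions with no test.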

How the data were processed

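GFP+CD11b+ cells of 14 samples were measured on Illumina MouseWG-6 v2 arrays. The deposited values are log2 signals that the authors background-corrected and quantile normalized, naming GenomeStudio 2011.1 and limma; how background was corrected is not given in the sources used here. On each array 80 values were negative. Detection p-values were not used here, and precision is limited by how many arrays there were.

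Groups came from the sample labels. Computations used R 4.3.3 and limma 3.58.1 (lmFit, eBayes, two-sided). One fit of 3 tissues gave the comparisons of BrM, bone marrow and spleen, a fit of 6 conditions those within the PyMT, EO771 and naïve mice, and a further fit set BrM against both other tissues. P-values were adjusted by Benjamini-Hochberg over 45281 probes, of which 34885 had 1 gene symbol. For each gene the probe with the highest mean over all arrays was used. On simulated data of the same layout, 49% of 100 probes changed by log2 2 and 93% of those changed by log2 4 were recovered in bone marrow minus spleen, 55% and 93% in BrM minus bone marrow and 68% and 99% in BrM minus spleen, over 45281 probes, with 2, 0 and 1 wrong calls.

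The rule for named genes took the 4 members, list genes called in bone marrow minus spleen, the nearest gene on each side and the 10 most alike over the arrays. It gave no list gene, since 0 were called, and the list genes named were chosen after their values were seen. The members and lists were chosen with earlier results of these data known. Alternatives were replicate blocks, variance models, array weights, centring on reference genes, cyclic loess, a filter on dim probes, probes averaged, the methods' t-test, an adjusted p under 0.05, other arrays in the fit and leaving out each array. Added after the data were seen were a fit without PyMT spleen 2 and PyMT BrM 2, values raised to the background level, and the test of the difference between PyMT and EO771 mice.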

Additional observations from a re-analysis of the deposited data

Results flagged for a closer look

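For each probe, the gap of the highest or lowest value to the nearest other array was read in PyMT BrM, all BrM and all spleens. Of these 21 groups of 4 to 6 arrays, 5 held a value that stood apart by Dixon's criterion. Chance alone flags about 1 in 20 groups of a single condition, a rate that need not hold here. All BrM mix both tumor models and include the PyMT BrM, and all spleens mix PyMT and naïve mice. The probes of Mpo are not independent of each other. In the spleens the array was PyMT spleen 2 each time: Mpo stood at 13.11 on its brightest probe (nearest spleen 10.95), at 12.24 on the second (10.33) and at 10.18 on the third (7.80), and Ctsg at 10.61 (nearest 8.06). In BrM, Elane stood at 7.50 on PyMT BrM 3 (nearest 5.64).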

How the results depend on the processing

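Bone marrow minus spleen called none of the 4 genes under any alternative, but its count over all probes, 4, was 2 with conditions weighted equally, 7 with a mean-variance trend, 13 with the mouse code as a random replicate block, 1316 with array weights, 34 at an adjusted p under 0.05, 1464 without PyMT spleen 2 and PyMT BrM 2, and 0 with a replicate block by title number or by mouse code, with the methods' t-test, with the naïve bone marrow arrays averaged or with only the groups compared. Leaving out an array gave 0 to 1652, the highest without PyMT spleen 2 and the lowest without naïve bone marrow 2.

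Same-coded BrM and spleen arrays did not deviate together (r from -0.044 to -0.0048), which does not show whether a code marks 1 mouse. With the code as a fixed replicate block, which gives the EO771 BrM no weight, the 4 genes stayed lower in BrM. There 0 were called in each comparison of BrM with other tissues, and with the code as a random block 4 were. Over all probes the counts were 428 of 2920 in BrM minus bone marrow, 658 of 2340 in BrM minus spleen and 443 of 3132 pooled, and with the block by title number 1750, 1556 and 1998. Array weights gave 6033 and averaged naïve bone marrow arrays 1354 in BrM minus bone marrow, the t-test 1201 in BrM minus spleen, and an adjusted p under 0.05 gave 5238, 4515 and 5539. Leaving out an array gave 1344 to 2752 (1360 and 1344 without naïve bone marrow 1 or 2), 1740 to 2937, and 2327 to 3128. The members called, 4, stayed 4 to 4, 3 to 4 and 4 to 4, and by the t-test were 3 in BrM minus bone marrow, without Prtn3 (adjusted p = 0.0308), and 2 in BrM minus spleen. There Prtn3 was also lost with robust variance (0.0103), array weights (0.0328), averaged naïve bone marrow arrays (0.0145), only the groups compared (0.0212), raised values (0.0113) and without PyMT spleen 2 and PyMT BrM 2 (0.0198).

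Of 2 members called in PyMT BrM minus PyMT spleen, 0 were called with either replicate block, the t-test or only the groups compared, 1 without PyMT spleen 2 and PyMT BrM 2, and 4 with a trend, reference-gene centring, the filter, an adjusted p under 0.05 or raised values (2 to 4 leaving out an array). Of 2 in EO771 BrM minus naïve spleen, 1 was called with the title block or probes averaged, 0 by the t-test and 0 to 0 without an array, and 4 with array weights or an adjusted p under 0.05. In PyMT BrM minus EO771 BrM, Prtn3 made 1 call with a trend, array weights, the filter or an adjusted p under 0.05.

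Among differences of differences, none called, signs turned between PyMT and naïve mice with the title block (Mpo 0.54, Elane 0.022, Ctsg 0.62), the mouse code block (Prtn3 0.42), array weights (Mpo 0.13, Elane 0.066, Ctsg 0.44), centring (Ctsg 0.078) and without PyMT spleen 2 and PyMT BrM 2 (Mpo 0.46, Elane 0.45, Prtn3 0.26, Ctsg 0.89). Leaving out an array gave -0.68 to 0.46 for Mpo, -0.87 to 0.45 for Elane, -0.70 to 0.26 for Prtn3 and -0.62 to 0.89 for Ctsg. Between PyMT and EO771 mice they turned for Elane with array weights (0.082) and without that pair (0.65) and for Ctsg with raised values (-0.22), and ranged from -0.82 to 0.52 for Elane and from -0.081 to 1.48 for Ctsg. The cause was not tested. Ratios of linear means were -6.39 for Mpo in BrM minus bone marrow and 1.44 in bone marrow minus spleen on the log2 scale. Signals not above background limit the folds of Mpo and Ctsg in BrM, and Elane was just above it on PyMT BrM 1 and both EO771 BrM.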

Other observations

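With PyMT spleen 2 left out of bone marrow minus spleen, an alternative in which 2.18% of all genes with a symbol were called higher and 2.76% lower in bone marrow, genes around the members passed the test although the 4 did not. Of 19 other granule and precursor genes of promyelocytes, 6 were higher in bone marrow: Ms4a3, Fcnb, Igfbp4, Mgst1, Muc13 and Slc2a3. Of the regulators, Gfi1 and Cebpe were higher and Irf8, a factor of the monocyte and dendritic lineage, was lower. Cd63 and the inhibitor gene Serpinb1a were higher, and Ctsc was lower. The eosinophil gene Epx and the basophil genes Mcpt8 and Prss34 were higher, as were 5 of 8 platelet markers, while of 16 macrophage markers 1 was higher and 6 were lower. These genes were named after their values were seen.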
